A study of Homo sapiens with 16 samples.

Results

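The 10 genes described here are the classical markers and regulators of epithelial-mesenchymal transition: the cadherins CDH1 and CDH2, vimentin (VIM), the transcription factors ZEB1, ZEB2, SNAI1, SNAI2 and TWIST1, and the splicing regulators ESRP1 and ESRP2. They were chosen by name, and every region of the deposited merged list and every peak of the 8 immunoprecipitated (IP) libraries inside their GENCODE spans was taken, which gave 18 of the 36970 merged regions and 81 of the 191974 peaks. The data are MeRIP-seq, which pulls down fragmented RNA with an antibody against N6-methyladenosine (m6A) and calls peaks over the input RNA. C4-2B, a human prostate cancer line that responds to enzalutamide, with genotype WT, was compared with MDV-R (MDVR in the labels), an enzalutamide-resistant line, also labelled WT, which was derived from C4-2B by serial passage with enzalutamide, a drug given for prostate cancer. MDV-R was kept in medium that contained enzalutamide, so that the resistant state and the presence of the drug cannot be told apart. Both were grown in RPMI with serum and harvested at day 3, with 4 IP and 4 input libraries per line. Each line is a single line, so that a difference between the lines belongs to this pair and cannot be assigned to resistance as such. Nothing in the labels says that replicates were separate cultures, and p-values therefore measure the spread between these libraries, which may be technical.

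Epithelial cells hold to each other through E-cadherin, the product of CDH1, and in epithelial-mesenchymal transition this adhesion is given up while vimentin filaments and N-cadherin, the product of CDH2, appear. ZEB1, ZEB2, SNAI1 (Snail), SNAI2 (Slug) and TWIST1 drive the programme, in large part by repressing CDH1, and ESRP1 and ESRP2 hold the splicing of many transcripts in its epithelial form. m6A is deposited on adenosines inside the DRACH sequence, most often as GGAC, and lies above all near stop codons and in long internal exons, where it marks transcripts for decay, translation or processing.

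The sequences around GGAC at the 6 member regions called in all 8 lists and at CDH1 region 6, called in 7, are shown because the antibody cannot place m6A at a single base, while the motif marks where it could lie. Each line below gives 20 nt of hg38 around the GGAC nearest to the strongest summit, the highest point of the peak, with GGAC in capitals. For VIM and ZEB1 the strand of the antisense gene is also given, since it held copies closer to the summit. The capitalised VIM-AS1 copy is followed by G, which the last base of DRACH excludes, so that copy is not a DRACH site. Another GGAC in the same line, in small letters, is followed by A.
CDH1 region 5, chr16:68833413-68833432, plus strand: aaagaccaGGACtatgacta
CDH1 region 6, chr16:68834788-68834807, plus strand: atactccaGGACttagaata
SNAI1 region 2, chr20:49988372-49988391, plus strand: gagctacaGGACaaaggctg
ESRP2 region 3, chr16:68229509-68229528, minus strand: aaaggggaGGACtttctgcc
ESRP2 region 1, chr16:68237585-68237604, minus strand: ccggagatGGACagccgcgc
VIM region 1, chr10:17229657-17229676, plus strand: ctcctgcaGGACtcggtgga
VIM-AS1 under VIM region 1, chr10:17229438-17229457, minus strand: cggtaggaGGACgaggacac
ZEB1 region 1, chr10:31318695-31318714, plus strand: cggggggcGGACacgcgagg
ZEB1-AS1 under ZEB1 region 1, chr10:31318597-31318616, minus strand: gacggcgaGGACacgcggcg
In CDH1 region 6 the motif lay 22.5 nt from the summit, and in CDH1 region 5, SNAI1 region 2 and ESRP2 region 3 it lay 81.5, 71.5 and 78.5 nt away. On the strand of the member gene it lay farther off in ZEB1 (111.5 nt), VIM (204.5 nt) and ESRP2 region 1 (317.5 nt), against 13.5 nt on the ZEB1-AS1 and 14.5 nt on the VIM-AS1 strand.

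Depth was recovered from the statistics of the peak caller. The IP libraries held 0.864 to 1.21 M tags (reads kept by the peak caller), the C4-2B inputs 0.901 to 1.23 M and the MDV-R inputs 1.60 to 2.97 M, so that input depth and line cannot be told apart. C4-2B replicate 1 had the fewest peaks, 13191 against 23254 to 30645 in the other lists, and its input was the smaller library of its pair. MDV-R replicate 3 had the shallowest of the MDV-R inputs. A second line name, T24R2, stands in the titles of the MDV-R libraries, and the cell line field was followed. Of 12 prostate luminal markers, 11 held a region called in C4-2B and 10 one called in MDV-R, TRPM8 being called in C4-2B alone. Of 10 urothelial markers, UPK2 and UPK3A held a called region in each line and the other 8 in neither. Over the lists of either line, 11 of 12 luminal and 2 of 10 urothelial markers held a called region, beside 56.5% of all coding genes. The UPK2 region called in all 8 lists had its summit in the 5′UTR of the overlapping BCL9L, and an intronic region each of UPK2 and UPK3A was called in 2 MDV-R lists and no C4-2B list.

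Calls at the member genes separated into a common set and a scattered set. Of the 18 regions, 17 held a peak of 1 or more lists, and ESRP2 region 2, in CDS at chr16:68230941-68231523, overlapped none. All 8 lists shared 6 of them, in CDH1, VIM, ZEB1, SNAI1 and ESRP2, whereas 7 regions were called in 2 to 7 lists and 4 in a single list. CDH2 (ENSG00000170558) and TWIST1 (ENSG00000122691) held no merged region and no peak in any list. A call needs enough IP tags over the local background, and the weakest peaks of a list held 4 to 6 IP tags. A missing call is therefore not a measured absence of m6A or of the transcript. Over the whole annotation 11315 of 20033 protein-coding genes (56.5%) held a called region and 6412 (32.0%) one called in all 8 lists, beside 8 and 5 of the 10 members.

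**Figure D1:**
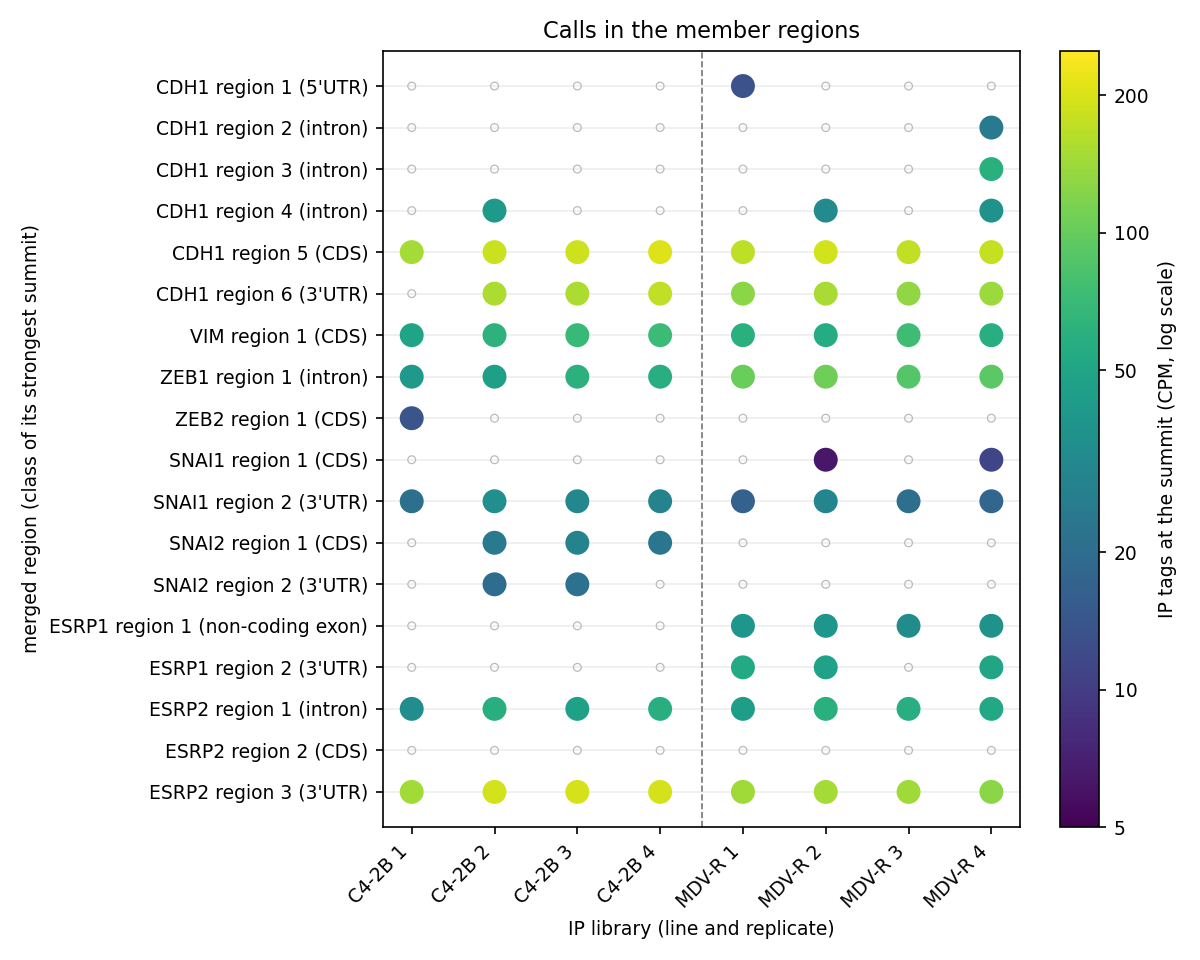
Calls in the 18 member regions (rows, with the class of the strongest summit) in each of the 8 IP libraries (columns). Filled points are calls coloured by IP tags at the summit in counts per M tags (CPM, log scale), and open points are lists without a call: 6 rows are filled in all 8 lists, and the ESRP1 rows are filled in MDV-R alone.

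By the class of the strongest summit, the 17 called regions comprised 5 CDS, 5 intronic and 5 3′UTR regions, 1 of a 5′UTR and 1 in an exon without coding sequence. Among all 35509 called regions on the main chromosomes introns held 34.1%, CDS 25.2%, 3′UTRs 13.7%, sequence between genes 12.1%, other exons 9.21% and 5′UTRs 5.65%. Of the 6 regions called in all 8 lists, the summits of CDH1 region 5, SNAI1 region 2 and ESRP2 region 3 lay in the last exon, from 158 nt before to 786 nt after the end of the stop codon. Those of VIM region 1, ZEB1 region 1 and ESRP2 region 1 lay near the 5′ end of the gene. Read along the gene's strand, GGAC stood at most 50 nt from the summit in 4 of the 17 regions (23.5%), namely CDH1 regions 3, 4 and 6 and ESRP1 region 2, and in 0 of the 6 regions called in all 8 lists. Over all 31207 called regions in genes the share was 41.1%, and over the 8645 of them called in all 8 lists it was 49.0%. On the opposite strand 9 of the 17 member regions (52.9%) held GGAC in that window, against 28.6% of all regions. The 5-base motif DRACH was present in 14 of 17 (82.4%) member windows and in 86.9% of all windows. Among regions called in all 8 lists it was present in 4 of 6 (66.7%) member windows and in 91.0% of all windows. VIM region 1 and SNAI1 region 2 were the shared member regions without it. These shares are descriptions, and a window without the motif says only that its letters lack it.

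**Figure D2:**
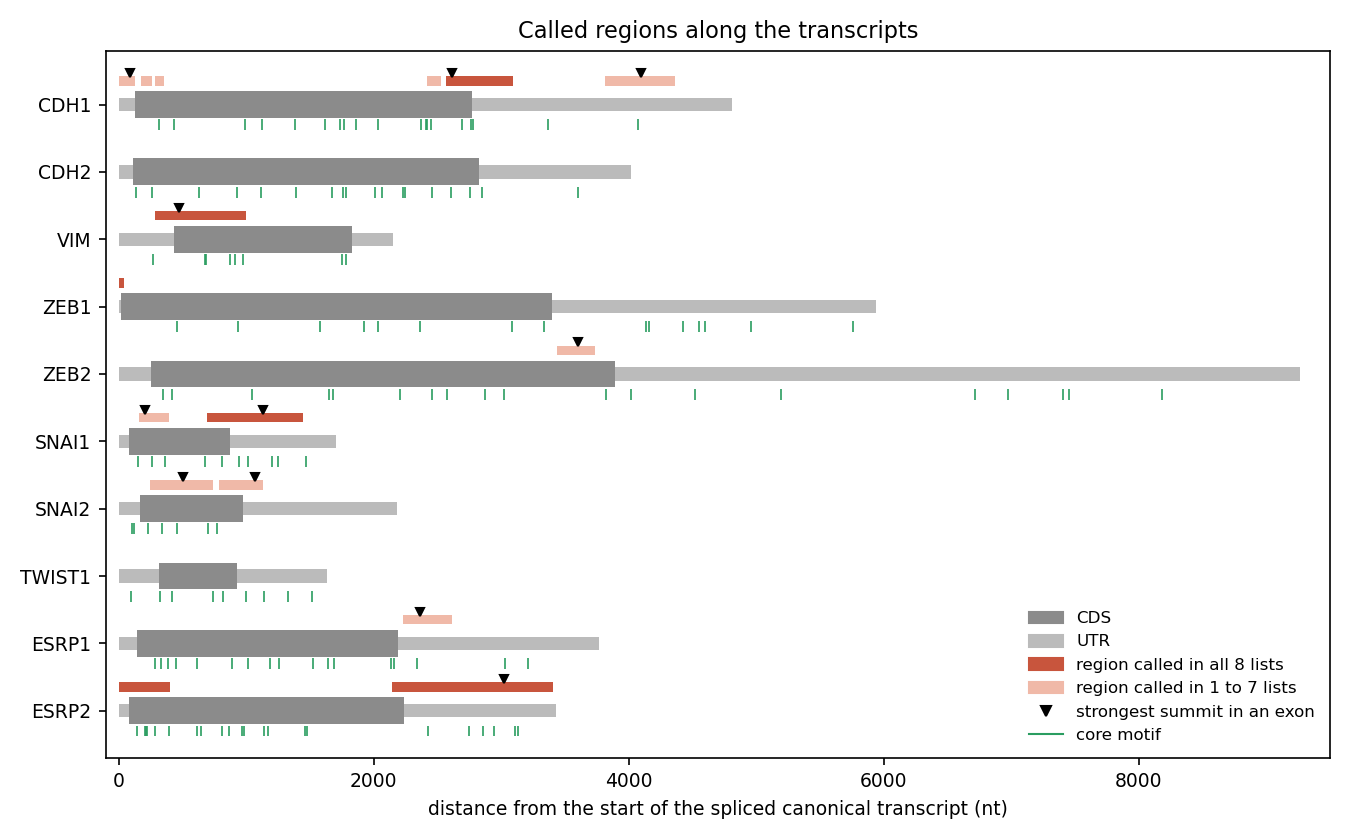
The canonical transcript of each member drawn to scale from its start (x axis, nt), with CDS as a tall and UTRs as low grey boxes, the exonic part of called regions above (dark for all 8 lists, pale for 1 to 7 lists), the strongest exonic summits as triangles and every GGAC as a green tick below. CDH2 and TWIST1 carry 18 and 9 GGAC and no region, and regions whose summit lies in an intron have no triangle.

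CDH1 (ENSG00000039068, chr16:68737292-68835537, plus strand), which encodes E-cadherin, held the most regions, 6, of which 2 in its last exon carried the strong signal in both lines. Region 5 (chr16:68833025-68833817) peaked in coding sequence of exon 16 of 16, 158 nt before the end of the stop codon, and every list called it. IP tags at its summit were 148, 183, 186 and 203 CPM in C4-2B replicates 1 to 4 and 169, 191, 172 and 178 CPM in MDV-R replicates 1 to 4. The ranges overlapped and the log2 difference (MDV-R minus C4-2B) was -0.01 (limma, SE 0.12, adjusted p = 0.96, 95% interval -0.25 to 0.23). The local background, which the peak caller took from the input and which is given in units of the lowest background of its library, was 156, 83.0, 96.4 and 118 in C4-2B and 44.7, 44.5, 116 and 34.6 in MDV-R. MDV-R replicate 3 stood with the C4-2B libraries while the other MDV-R libraries lay below all of them. The background difference of -1.05 on the log2 scale missed the threshold over all 8 libraries (limma, SE 0.37, adjusted p = 0.054) and passed it without MDV-R replicate 3 (-1.43, adjusted p = 0.00156).

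Region 6 of CDH1 (chr16:68834538-68835088) lay 1321 nt into the 3′UTR and every list but that of C4-2B replicate 1 called it. IP tags were 156, 155 and 171 CPM in C4-2B replicates 2 to 4 and 128, 150, 130 and 138 CPM in MDV-R. Each value of C4-2B replicates 2 to 4 lay above every MDV-R value, but replicate 1 has no value here. That library was the lowest of C4-2B at CDH1 region 5 (148 CPM) and at ESRP2 region 3 (145.9 CPM), so the separation holds without it only. In the fit without C4-2B replicate 1, which covers the 12314 regions called in the other 7 lists, the tags fell by 0.24 on the log2 scale (limma, SE 0.07, adjusted p = 0.00919), and background (-0.85, adjusted p = 0.168) and tags over background (0.62, adjusted p = 0.475) did not pass. In that fit 24.0% of all regions passed with fewer tags in MDV-R and 21.1% with more. Of the other CDH1 regions, region 1 at the 5′UTR was called in MDV-R replicate 1 with 12 tags. Regions 2 and 3 were called in MDV-R replicate 4 with 22 and 54 tags, and region 4, with 30 to 42 tags, in 1 C4-2B and 2 MDV-R lists. The strongest summits of regions 2 to 4 lay in introns. Each of these regions also reached into an exon, at 173 to 262, 288 to 357 and 2420 to 2529 nt of the canonical transcript. Intronic and exonic signal therefore cannot be told apart there.

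VIM (ENSG00000026025, chr10:17228241-17237593, plus strand) encodes vimentin, the intermediate filament of mesenchymal cells, and held 1 region (chr10:17228568-17230046), called in all 8 lists with its summit in CDS of exon 2 of 10 of the canonical transcript. IP tags were 48.9, 61.4, 69.7 and 71.8 CPM in C4-2B and 59.9, 55.2, 74.0 and 58.0 CPM in MDV-R, and the ranges overlapped. The log2 difference was -0.02 (limma, SE 0.16, adjusted p = 0.937, 95% interval -0.33 to 0.29). Local background was 15.6, 7.33, 11.8 and 9.85 in C4-2B and 15.7, 8.09, 21.9 and 6.50 in MDV-R, without separation (log2 difference 0.11, adjusted p = 0.889). The peak lists carry no strand, and all 8 summits also lay inside VIM-AS1, an antisense long noncoding RNA, with the strongest one in its non-coding exon. Within 50 nt of that summit the VIM strand held 0 and the VIM-AS1 strand 4 copies of GGAC, so which of the overlapping transcripts gave the signal cannot be told apart from the lists.

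ZEB1 (ENSG00000148516, chr10:31318495-31529814, plus strand), a repressor of CDH1, gave the clearest difference between the lines among the members. Its single region (chr10:31317885-31319259) straddled the start of the gene, with 610 nt upstream of it, and was called in all 8 lists. IP tags at the summit were 40.6, 44.6, 61.1 and 57.9 CPM in C4-2B and 102, 105, 87.6 and 92.6 CPM in MDV-R. All 4 MDV-R libraries lay above all 4 C4-2B libraries, with means of 51.0 ± 9.98 and 96.9 ± 8.16 CPM (SD, n = 4). The tags rose 1.92-fold (log2 difference 0.94, limma SE 0.15, adjusted p = 8.12e-09, and two-sided exact permutation p = 0.0286, the lowest possible with 4 against 4). In counts this was 45 to 57 tags in C4-2B and 83 to 99 in MDV-R. In a limma fit without the intensity trend the adjusted p was 1.07e-05.

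The background at the ZEB1 region did not follow. It was 9.99, 14.7, 11.0 and 13.1 library units in C4-2B and 14.5, 10.1, 24.4 and 3.71 in MDV-R, where the values of MDV-R covered the whole range of C4-2B (log2 difference -0.17, adjusted p = 0.835). IP tags over local background were 9.13 to 16.6 in C4-2B and 10.8 to 74.8 in MDV-R, a log2 difference of 1.11 that did not pass (limma, SE 0.50, adjusted p = 0.189), and that passed without MDV-R replicate 3 (1.55, adjusted p = 0.0308). The assignment to ZEB1 is uncertain. Of the 8 summits, 4 lay inside the ZEB1 span, between 3 and 108 nt after its start, and 4 lay 13 to 18 nt before it, whereas all 8 lay inside ZEB1-AS1, a long noncoding RNA on the other strand, with the strongest in its non-coding exon. Within 50 nt of the strongest summit the ZEB1 strand held 0 and the ZEB1-AS1 strand 3 copies of GGAC. The body of ZEB1, with 15 GGAC in the canonical transcript, held no other region.

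ZEB2 (ENSG00000169554, chr2:144364364-144521057, minus strand), the paralogue of ZEB1, was called once, in C4-2B replicate 1, in CDS of exon 10 at chr2:144389609-144389904 with 17 tags. Its 3′UTR is the longest of the 10, 5370 nt with 8 GGAC, and held no call.

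SNAI1 (ENSG00000124216, chr20:49982980-49988886, plus strand), which encodes the repressor Snail, held a region over the end of the CDS and the 3′UTR (region 2, chr20:49987795-49988627, exon 3 of 3), with the strongest summit 254 nt after the stop codon, called in all 8 lists. It was the weakest of the 6 shared regions, at 20.7, 34.7, 31.1 and 29.0 CPM in C4-2B and 16.6, 29.7, 20.4 and 17.8 CPM in MDV-R. The ranges overlapped through C4-2B replicate 1 and MDV-R replicate 2. The log2 difference of -0.46 did not pass (limma, SE 0.21, adjusted p = 0.0806), and it passed in 5 of 13 alternatives. It passed when either of those libraries was left out (-0.61, adjusted p = 0.0141 and -0.64, adjusted p = 0.0303), a choice that rests on these same values. It also passed without the intensity trend (adjusted p = 0.0408), after centring each library on its median (-0.54, adjusted p = 0.0108) and with a replicate block (adjusted p = 0.0443). In the other alternatives it did not pass, with adjusted p up to 0.272 without C4-2B replicate 2. Local background ran from 2.35 to 8.93 in C4-2B and from 2.47 to 5.63 in MDV-R (log2 difference -0.65, adjusted p = 0.399). Called regions covered 58.0% of the 1705 nt transcript and 7 of its 10 GGAC. Region 1, in CDS of exon 2, was called in MDV-R replicates 2 and 4 with 6 and 10 tags.

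SNAI2 (ENSG00000019549, chr8:48917598-48921740, minus strand), which encodes Slug, was called in C4-2B lists only, but not in all of them. Region 1, in CDS of exon 2 (chr8:48919950-48920437), was called in C4-2B replicates 2 to 4 with 25, 27 and 20 IP tags and in 0 of 4 MDV-R lists (two-sided Fisher's exact p = 0.143, adjusted p = 0.997). Region 2, 101 nt into the 3′UTR (chr8:48918649-48919213), was called in C4-2B replicates 2 and 3 with 20 tags each. The list without either region in C4-2B is the smallest one, replicate 1, and without it SNAI2 region 1 was called in all 3 remaining C4-2B lists and no MDV-R list. That split rests on leaving out the library that lacked the call, and the share of all regions with such a split was not computed. The background at region 1 was 1.79 to 3.92 library units, where 1 is the lowest of a library.

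ESRP1 (ENSG00000104413, chr8:94641074-94707466, plus strand) had the reverse pattern, with 7 peaks in MDV-R and 0 in C4-2B. Region 1 (chr8:94641500-94641938) had its summits 496 to 716 nt from the start of the gene. The strongest lay in a non-coding exon that is not part of the canonical transcript. Region 1 was the only member region called in 4 of 4 lists of a line and 0 of 4 of the other, with 35, 37, 34 and 33 IP tags in MDV-R replicates 1 to 4. That is 1 of 17 called regions, beside 3.68% of all 36076 called regions for MDV-R, and 0 of 17 beside 1.22% for C4-2B. Fisher's exact test gave p = 0.0286 before and 0.584 after Benjamini-Hochberg adjustment over all called regions, which was also the lowest adjusted value of any region. No split of 4 against 4 lists gives a lower p, so the adjusted test could pass at no region, SNAI2 region 1 included, and decides nothing here. Region 2, 175 nt into the 3′UTR (chr8:94705805-94706315), was called in MDV-R replicates 1, 2 and 4 with 48, 45 and 45 tags. When every list was limited to the size of the smallest, region 1 was no longer called in all MDV-R lists and none of the C4-2B lists, leaving 0 such member regions. In the C4-2B lists neither the tags nor the background are known at these sites, so the size of the difference is not given.

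ESRP2 (ENSG00000103067, chr16:68229033-68238102, minus strand) was called in every library. Region 3 spans the end of the CDS and most of the 3′UTR (chr16:68229056-68230338, summit in exon 15 of 15, 786 nt after the stop codon). It also overlaps NFATC3 on the other strand and an unnamed gene of the same strand (ENSG00000262160), though neither at the summit. IP tags were 145.9, 191.2, 195.1 and 195.7 CPM in C4-2B and 142, 147, 142 and 127 CPM in MDV-R. C4-2B replicates 2 to 4 lay above all of MDV-R and replicate 1 lay among them. The tags fell 1.30-fold (log2 difference -0.38, limma SE 0.13, adjusted p = 0.0112, exact permutation p = 0.0571), and the call was lost when C4-2B replicate 2 or 3 or MDV-R replicate 4 was left out, with adjusted p between 0.0581 and 0.0743, and in a fit without the intensity trend (adjusted p = 0.0604). Local background was 83.2, 68.4, 66.1 and 62.4 in C4-2B and 20.5, 17.2, 46.9 and 19.8 in MDV-R, without overlap. It fell 2.91-fold (log2 difference -1.54, limma SE 0.36, adjusted p = 0.00512, exact permutation p = 0.0286).

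Set against that background the ESRP2 3′UTR gave 5.26, 8.39, 8.85 and 9.41 in C4-2B and 20.7, 25.6, 9.09 and 19.3 in MDV-R for IP tags over local background. Only MDV-R replicate 3 fell within the C4-2B range, and the log2 difference of 1.17 did not pass with it (limma, SE 0.46, adjusted p = 0.145) and passed without it (1.48, adjusted p = 0.0168). Region 1 (chr16:68235644-68238272) covered the 5′ end of ESRP2, with summits in an intron 798 to 882 nt from the start of the gene and inside an unnamed gene of the same strand (ENSG00000261469). Its IP tags were 34.0, 59.4, 46.1 and 59.1 CPM in C4-2B and 43.3, 59.5, 58.4 and 52.4 CPM in MDV-R and did not separate (log2 difference 0.13, adjusted p = 0.584). Its background ran from 5.71 to 7.46 in C4-2B and from 2.83 to 6.05 in MDV-R (log2 difference -0.75, adjusted p = 0.276). Called regions covered 12 of the 22 GGAC of the ESRP2 transcript.

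**Figure D3:**
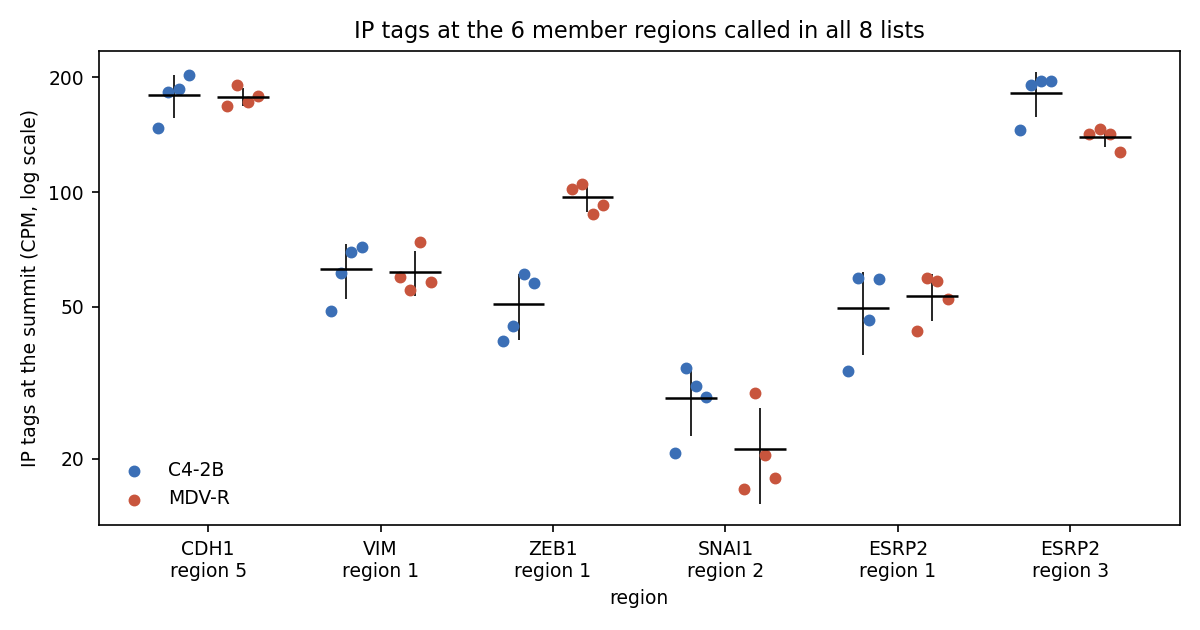
IP tags at the strongest summit (CPM, log scale) of the 6 member regions called in all 8 lists, 1 point per library, C4-2B in blue and MDV-R in red, with the mean as a horizontal and ± 1 SD as a vertical line. At ZEB1 region 1 the MDV-R points (87.6 to 105 CPM) lie above all C4-2B points (40.6 to 61.1 CPM), and elsewhere the lines overlap.

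Over the 6 shared member regions together, IP tags passed as higher in MDV-R in 1 (ZEB1) and as lower in 1 (ESRP2 region 3), beside 20.8% and 14.8% of the 9327 regions called in all 8 lists. The members' median log2 difference was -0.02 and that of all regions 0.06. Local background passed as lower in 1 of 6 (ESRP2 region 3) and as higher in 0, beside 13.4% and 1.80% of all regions. Here the whole series was shifted: the median over all 9327 regions was -0.48 and 75.7% of them had a lower value in MDV-R, and the members' median was -0.70. Relative to the shift the ESRP2 3′UTR background was still lower by more than the spread (log2 difference after centring each library on its median -1.05) and so was that of CDH1 region 5 (-0.56, adjusted p = 0.0357). Every MDV-R input was deeper than every C4-2B input. A lower transcript level and an effect of input depth on the background therefore cannot be told apart. In these bulk libraries the same holds for fewer transcripts per cell and fewer cells with the transcript.

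IP tags over local background, the measure nearest to methylation per transcript that the lists allow, passed in 0 of 6 member regions in either direction, beside 1.13% of all regions higher and 0.0214% lower. The median was 0.55 over all regions and 0.96 over the members, and after centring none of the 6 passed. MDV-R replicate 3 decided this count. Without it 3 of 6 member regions passed as higher in MDV-R (ZEB1, ESRP2 region 3 and CDH1 region 5) and 0 as lower, beside 17.0% and 0.138% of 9393 regions, and the number of regions passing over the series rose from 107 to 1610. Over all 8 libraries these 3 regions had unadjusted p-values of 0.0270, 0.0121 and 0.0130 in the limma fit, and 1967 regions of the series had one below 0.05. The intervals were wide, from 0.26 to 2.08 at ESRP2 region 3 and from -1.10 to 0.84 at VIM.

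**Figure D4:**
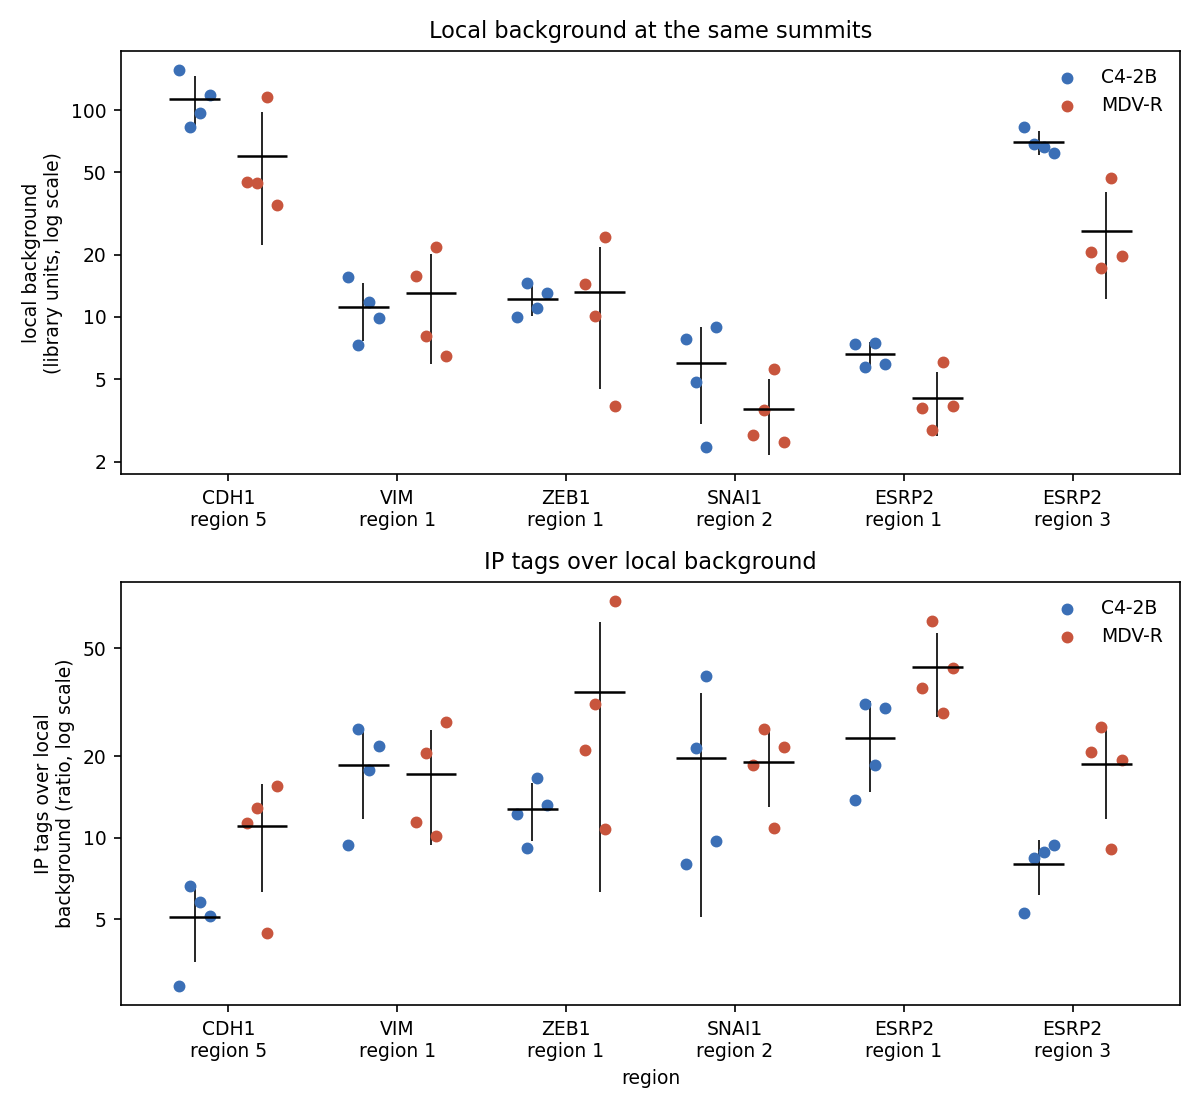
Local background (top, library units, log scale) and IP tags over local background (bottom, ratio, log scale) at the same 6 summits, 1 point per library, with mean and ± 1 SD. At ESRP2 region 3 the C4-2B background (62.4 to 83.2) lies above that of MDV-R (17.2 to 46.9), and MDV-R replicate 3 is the highest MDV-R point at every region in the top panel.

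**Figure D5:**
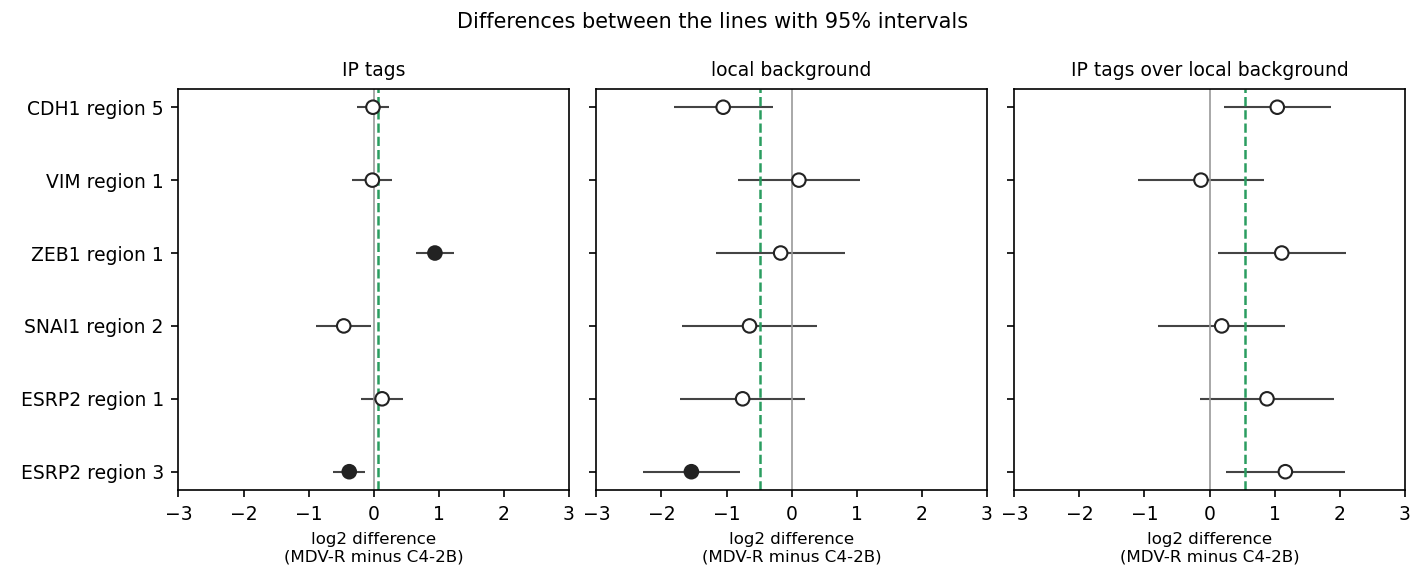
Log2 differences (MDV-R minus C4-2B) with 95% intervals at the 6 regions for each measure. Filled points passed the adjusted threshold of 0.05, and the dashed green line is the median over all 9327 regions (0.06, -0.48 and 0.55): the filled points are ZEB1 and ESRP2 region 3 for tags and ESRP2 region 3 for background.

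Other genes of the programme were read from lists of epithelial, mesenchymal and ESRP-spliced genes. Of 32 epithelial genes, 23 held a called region, beside 56.5% of all coding genes, and of their 25 regions called in all 8 lists 5 passed with more and 4 with fewer IP tags in MDV-R, beside 20.8% and 14.8% of all regions. Background passed as lower in 7 and higher in 0, beside 13.4% and 1.80%. Some of the 25 regions, including passing ones in each direction of the IP tags, had their strongest summit assigned to an overlapping gene. GRHL2, a transcription factor that keeps epithelial identity, held an intronic region called in all lists of MDV-R alone with 31 to 46 tags. It was the only 1 of the 70 called regions of the list with such a split, beside 3.68% of all called regions. IP tags over local background passed for the claudin CLDN3 (log2 difference 1.89, limma adjusted p = 0.0167) and for a region of GRHL2 whose summit lay in an exon of an overlapping unnamed gene, ENSG00000289048 (1.80, adjusted p = 0.0239). At both regions the IP tags themselves passed as lower in MDV-R (log2 differences -0.53 and -1.15), and so did the background (-2.41 and -2.95).

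Of 38 mesenchymal genes, 25 held a called region, beside 56.5% of all coding genes. Of their 11 regions called in all 8 lists 5 passed with more and 1 with fewer IP tags, beside 20.8% and 14.8% of all regions. Background passed as higher in 1 and lower in 0, beside 1.80% and 13.4%, with a median log2 difference of 0.30 where that of all regions was -0.48. Background cannot fall below the lowest of its library, and in C4-2B the TNC, SNAI3 and NT5E regions lay close to that floor. Several of the 11 regions lay in COL5A1, and the SNAI3 region had its strongest summit in an intron of SNAI3-AS1. The part of the floor in this median was not tested. Of the 53 called regions of the list, 2 were called in all lists of C4-2B alone and 3 in all of MDV-R alone, beside 1.22% and 3.68% of all called regions. Regions in FOXC1, a transcription factor, and LOX, a collagen crosslinking enzyme, were called in C4-2B alone with 12 to 15 and 9 to 12 tags. Regions in fibronectin (FN1, 21 to 31 tags), the integrin subunit ITGA5 (16 to 28 tags) and TGFB1 (21 to 36 tags, with the strongest summit in CDS of the overlapping CCDC97) were called in MDV-R alone. Of 16 ESRP splicing targets, 13 held a called region, beside 56.5% of all coding genes. FGFR2 (3′UTR, 14 to 19 tags) and NUMB (CDS, 38 to 57 tags) held regions called in all lists of MDV-R alone. That is 2 of the 36 called regions of the list, beside 3.68% of all called regions. Of the 7 ESRP target regions called in all 8 lists, 1 passed with more and 1 with fewer IP tags, beside the same 20.8% and 14.8%, and background passed as lower in 2, beside 13.4%.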

How the data were processed

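RNA of C4-2B and MDV-R cells (8 IP and 8 input libraries) was aligned by the authors to hg38 with STAR 2.7.0 (GENCODE), filtered with SAMtools 1.10 and called per IP library with MACS2 3.0.0a6 (extension 100 nt, genome size 300 Mb). The deposited lists give per peak a fold enrichment (ratio), a −log10 p-value and a −log10 q-value, without strand; the merged list gives positions alone, and read counts per region were not analysed here. IP tags and local background at each summit and library sizes were solved from the fold enrichment and −log10 p (all 81 member peaks; 100% of peaks per list). A region was called in a list when 1 bp of a peak overlapped it. Classes follow GENCODE release 44 on the same build. limma 3.58.1 (R 4.3.3, eBayes with trend, Benjamini-Hochberg) was fitted to log2 values of the 9327 regions called in all 8 lists, with exact permutation tests over 70 arrangements for single regions. Members and lists were chosen with earlier results of these data known. All member regions are given; of each list at most 5 genes are named, regions called in 1 line alone first, then the largest passing differences of tags over background. The alternatives tried were a stricter −log10 q (5 or more), lists of equal size, an overlap of 50%, an own union, other summits, scalings and spreads, a replicate block, leaving out each library, a 25 nt window and DRACH; the opposite strand was added after seeing the data. Scripts were tested on simulated data. Tags are counting data. limma drew the variance of each region toward a trend over all regions. For IP tags and tags over background, this trend in effect set the SEs, intervals and limma p-values of the main fit. These do not measure the spread of a region's own libraries, which the permutation tests use alone. Values of single prostate marker genes are not reported here.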

Additional observations from a re-analysis of the deposited data

Results flagged for a closer look

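Of the 42 sets of 4 libraries of one line at a member region (IP tags, local background and their ratio), 3 had a library whose gap to its neighbour exceeded Dixon's 95% critical value, by which chance flags about 1 set in 20. IP tags at ESRP2 region 3 were 145.9 CPM in C4-2B replicate 1, while the other C4-2B libraries lay between 191.2 and 195.7 CPM (ratio of gap to range 0.91). Local background at ESRP2 region 3 was 46.9 library units in MDV-R replicate 3, against 17.2 to 20.5 in the other MDV-R libraries (0.887). Local background at CDH1 region 5 was 116 library units in the same library, against 34.6 to 44.7 in the others (0.877). The part of input depth in these values was not tested.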

How the results depend on the processing

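The 1 member region called in one line alone (ESRP1 region 1) remained 1 with a −log10 q of at least 5, an overlap of 50% and an own union, became 0 with lists of equal size, and ranged from 1 to 2 when each library was left out (SNAI2 region 1 joined without C4-2B replicate 1 and ESRP1 region 2 without MDV-R replicate 3). Each region joined when the library that lacked its call was left out, and the share of all regions that did so was not computed. The number of member regions passing for IP tags was 2 and ranged from 1 to 3 over the left-out libraries; without the trend it stayed 2, with SNAI1 region 2 (adjusted p = 0.0408) in place of ESRP2 region 3 (adjusted p = 0.0604); with centring it was 3, SNAI1 region 2 joining (adjusted p = 0.0108). ZEB1 region 1 passed in 13 of 13 alternatives (log2 0.84 to 1.03). For local background it was 1, became 2 with centring on the median, and ranged from 1 to 2 over the left-out libraries; ESRP2 region 3 passed in 13 of 13. For tags over background it was 0 and ranged from 0 to 3, reaching 3 without MDV-R replicate 3. GGAC at 4 of 17 summits became 1 with a 25 nt window, 14 with DRACH and 9 on the opposite strand. With the replicate block the counts were 3 for IP tags (SNAI1 region 2 joined, adjusted p = 0.0443), 1 for background and 0 for the ratio; same-numbered libraries were not paired by the labels, and their deviations correlated by -0.0667 to 0.0437.

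Differences changed sign under an alternative only at regions and measures that passed under none of them. Over the left-out libraries IP tags (log2) ran from -0.040 to 0.23 at ESRP2 region 1, from -0.10 to 0.050 at CDH1 region 5 and from -0.14 to 0.048 at VIM. Background ran from -0.56 to 0.34 at ZEB1, where centring gave 0.32, and from -0.19 to 0.39 at VIM. Tags over background ran from -0.15 to 0.62 at SNAI1 region 2, where centring gave -0.36, and from -0.43 to 0.083 at VIM. The lists hold called peaks alone, so values exist only where a library made a call, and all C4-2B inputs were shallower than the MDV-R inputs.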
